A study of Homo sapiens with 8 samples.

Results

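The clustered protocadherins are cell-surface cadherins encoded by 3 gene arrays, alpha, beta and gamma, that lie next to each other on chromosome 5, with TAF7 between the beta and the gamma array. They were taken here as every row of the gene tables whose symbol was PCDHA, PCDHB, PCDHGA, PCDHGB or PCDHGC with a number, or PCDHAC1 or PCDHAC2, leaving out pseudogenes with a symbol ending in P. This gave 54 of 61552 genes, of which 16 belonged to the alpha, 16 to the beta and 22 to the gamma cluster. PCDHA14, which GENCODE release 29 lists as a transcribed pseudogene although its symbol lacks the ending, was kept under the rule.

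In neurons these proteins are known for giving each cell a surface identity. Each cell uses a small set of the promoters, and the proteins bind identical copies of themselves on neighbouring cells. Every alpha and gamma gene joins its own large variable exon to constant exons shared by its cluster, while beta genes are single-exon genes with no shared part. Promoter choice is known to involve DNA methylation, the zinc-finger factor CTCF and the cohesin ring, and almost all of these promoters share a short conserved sequence element with the core letters CGCT. In tumours of several kinds, long-range methylation of these arrays has been described.

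Messenger RNA was sequenced in 8 libraries from breast cancer cell lines. LM2 (MDA231-LM2) is a derivative of MDA-MB-231 that was selected for metastasis to the lung, and MDA-MB-231 is a triple-negative, mesenchymal-type line. The 4 groups of 2 libraries were LM2 with a short hairpin RNA against TAF7 (shTAF7), LM2 with a control hairpin, MDA-MB-231 with shTAF7 and MDA-MB-231 with the control hairpin. The hairpin against TAF7 was hairpin number 3 in every knockdown library, both control groups are labelled wild type, and the stated purpose was to find genes that TAF7 regulates. TAF7 is a subunit of TFIID, which positions RNA polymerase II at core promoters.

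The libraries held 17217776 to 20292291 counts, and reads were found for 22296 to 23434 genes in 6 of them and for 24490 and 24762 genes in the LM2 control libraries. TAF7 itself had 2549 and 2809 counts in LM2 shTAF7 libraries, against 3548 and 3527 counts in LM2 control libraries. In MDA-MB-231 it had 1845 and 2160 counts with shTAF7, against 3446 and 3300 counts with the control hairpin. The log2 fold change of TAF7 was -0.43 ± 0.07 in LM2 (SE, edgeR adjusted p = 8.42e-07) and -0.77 ± 0.07 in MDA-MB-231 (SE, adjusted p = 4.01e-12), ratios of 0.742 and 0.585 to the control level. The mesenchymal-type markers VIM, CD44, AXL, CAV1 and MSN and the keratins KRT8 and KRT18 had 4500 or more counts in every library, the oestrogen receptor ESR1 had 1 to 5, the progesterone receptor PGR had 0 or 1 and the leukocyte gene PTPRC had 0 to 5. EPCAM, KRT19 and PECAM1 were also listed as markers and are not given here, so this check is partial. Of 16 listed markers 13 were tested, with log2 fold changes of -1.70 to 1.31 for shTAF7 against control in LM2. In MDA-MB-231 the range was -4.08 to 0.754. Between the lines, LM2 over MDA-MB-231, it was -0.801 to 6.13 for controls and -2.65 to 10.02 for shTAF7 cells, so the markers were not all steady.

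The promoters are shown first, because the line-to-line differences below were found in the RNA of neighbouring genes. Of the 54 members, 47 had a promoter entry in RefSeq (GRCh38.p14, 300 bases from 250 before to 50 after the start, 52 entries because some genes have more than 1 start). CGCT was present on either strand in 51 of the 52 entries (98.1%), PCDHA9 being the exception, and in 70.0% of all 35116 human entries of the same length. For the members named below, the 22 bases around the CGCT that best matched their own cluster are given 5′ to 3′, all on the plus strand, with CGCT in capitals. The most frequent base at each position spelled out one pattern per cluster.

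Alpha pattern: acatgatgtCGCTgtccaccac
Beta pattern: gcatggtggCGCTgcaggctaa
Gamma pattern: tctgggcgcCGCTgttgaccaa

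Members matched their pattern at a median of 18 of 22 positions in the alpha, 20 in the beta and 19 in the gamma cluster. The patterns were drawn from these same windows, and the best window of each member was taken. High matches are thus partly built in, and no other promoters were scored against the patterns. Longer motifs, each containing CGCT, were chosen after the sequences were seen. GTGGCGCT (either strand) was in 13 of 14 beta entries, in 0 of 13 alpha and 0 of 25 gamma entries and in 1.15% of all promoters. ATGTCGCT was in 9 of 13 alpha entries and in 0.234% of all promoters, and CCGCTGTT in 8 of 25 gamma entries and in 0.738% of all promoters. Of the 10 members called lower in LM2 controls than in MDA-MB-231 controls, 8 are shown here, because the line comparison turns on them. PCDHGC3 stands further on, and PCDHGA12 has no entry.

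PCDHB2, chr5:141094551-141094572: gcggggtggCGCTgcagcctta
PCDHB8, chr5:141177784-141177805: ccgtggtggCGCTgcaggataa
PCDHB16, chr5:141182317-141182338: gcgtggtggCGCTgcaggttaa
PCDHB12, chr5:141208650-141208671: gcgtggtggCGCTgcaggataa
PCDHB15, chr5:141245321-141245342: gcatggtggCGCTgcaggctaa
PCDHGA10, chr5:141412938-141412959: tctgagcgcCGCTgttcaccta
PCDHGB7, chr5:141417614-141417635: cagagcaagCGCTgacgccggg
PCDHGA11, chr5:141420979-141421000: tctaggcgcCGCTgctcaccaa

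PCDHB15 matched the beta pattern at all 22 positions. The best plus-strand window of PCDHGB7 matched the gamma pattern at only 8 of 22, the fixed CGCT letters included. That window is therefore not taken as a located element. The core of PCDHB8 began 3 bases past the annotated start, whereas the cores of the other beta genes began before it, between positions -84 and -11 with the start counted as 0. Of the 5 members called higher in LM2 controls than in MDA-MB-231 controls, 4 had an entry, and PCDHB11 had none.

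PCDHB4, chr5:141121730-141121751: gcagggtggCGCTgcaggctaa
PCDHB9, chr5:141187081-141187102: acaaggtggCGCTgcagactga
PCDHGB1, chr5:141350032-141350053: tctgggcgcCGCTgtcgaccaa
PCDHGB2, chr5:141359928-141359949: tctgagcgtCGCTgttggtcaa

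For comparison, 4 members of similar level that were not called between controls are shown, together with PCDHGC3, which was called lower there, a call that ended under 4 of 15 alternatives.

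PCDHB10, chr5:141192306-141192327: acacggtggCGCTgcaggctaa
PCDHB13, chr5:141213872-141213893: gcgtggtggCGCTgcaggataa
PCDHB14, chr5:141223270-141223291: acatggtggCGCTacaggataa
PCDHGA6, chr5:141373842-141373863: tctaagcgtCGCTgttgaccaa
PCDHGC3, chr5:141475887-141475908: tctgtgtgcCGCTgtcggccaa

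PCDHB12, which was lower in LM2, and PCDHB13, for which no line difference was called, held the same 22 letters. A match is a description of letters and not of a bound site. The 2 alpha genes with a RefSeq entry and with reads in all 4 LM2 libraries carried these windows, which matched the alpha pattern at 13 positions each.

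PCDHA11, chr5:140868890-140868911: gcaaggtgtCGCTctttacttg
PCDHAC1, chr5:140926227-140926248: aggtgtggtCGCTcacgttcac

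The 250 bases before the start of PCDHB16 and of its neighbour PCDHB9 are printed whole, because these adjacent genes differed between the lines in opposite directions. Both hold CGCT at 1 place on this strand.

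PCDHB16, chr5:141182137-141182386: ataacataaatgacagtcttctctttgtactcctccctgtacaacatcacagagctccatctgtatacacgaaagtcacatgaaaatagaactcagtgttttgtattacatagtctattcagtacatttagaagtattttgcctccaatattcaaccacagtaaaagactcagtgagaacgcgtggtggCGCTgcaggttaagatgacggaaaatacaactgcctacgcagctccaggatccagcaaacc
PCDHB9, chr5:141186911-141187160: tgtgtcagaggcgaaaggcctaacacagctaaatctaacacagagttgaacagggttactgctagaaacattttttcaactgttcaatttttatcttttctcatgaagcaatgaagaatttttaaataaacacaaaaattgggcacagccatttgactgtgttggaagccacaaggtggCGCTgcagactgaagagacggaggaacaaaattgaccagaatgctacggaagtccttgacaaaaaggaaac

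All clustered protocadherins were weakly transcribed. In total the members had 611 and 563 counts in LM2 shTAF7, 598 and 601 in LM2 control, 832 and 868 in MDA-MB-231 shTAF7 and 826 and 795 in MDA-MB-231 control libraries. Of the 54 members, 24 passed the low-count filter (11 beta, 13 gamma and 0 alpha genes), with mean levels of 0.381 to 3.42 CPM (the read count scaled to a common library size), against a median of 18.2 CPM over all 15923 genes tested. Of the 30 that were not tested, 10 had no read in any library and 20 had reads, at most 15 in a library. One read was worth 0.0488 to 0.0583 CPM, so the values below carry a counting error that is large beside the depth of the libraries. Of the 24 tested, 14 passed the filter through both lines, 6 through MDA-MB-231 libraries alone, 3 through LM2 libraries alone and 1 (PCDHGB3) through 1 library of each line. A gene that passed through 1 line had to be higher there, and the counts of calls between lines are read with that in mind.

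**Figure D1:**
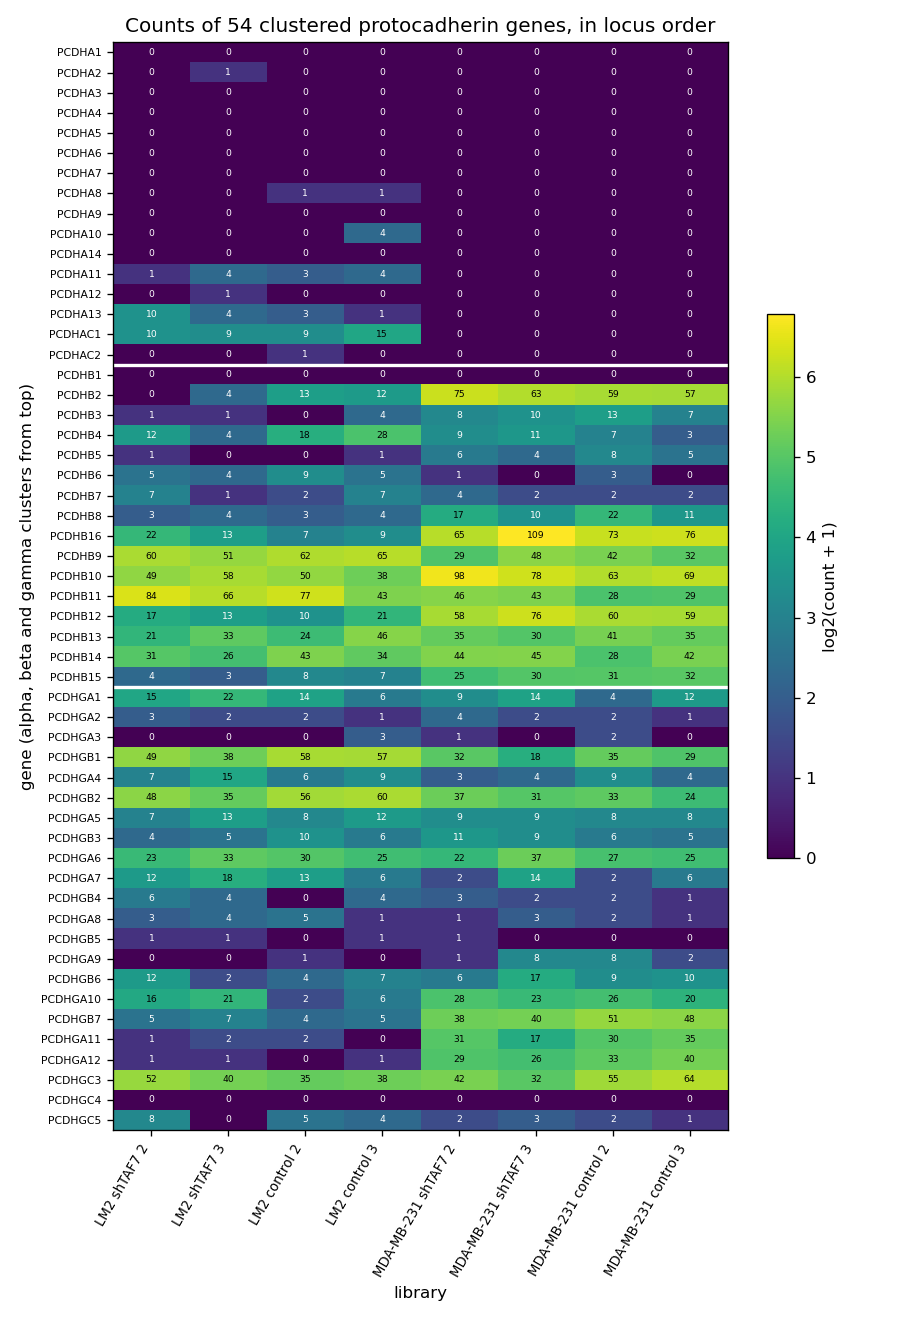
Heat map of the read counts (numbers in the cells, colour on a log2(count + 1) scale) of all 54 members in locus order in each of the 8 libraries, with white lines between the alpha, beta and gamma clusters. The alpha rows are 0 in the MDA-MB-231 libraries and hold up to 15 counts in LM2, and PCDHGB7 to PCDHGA12 at the end of the gamma variable genes are dark in LM2.

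The alpha cluster was read only in LM2. Its 16 genes together had 21 and 19 counts in LM2 shTAF7 and 17 and 25 counts in LM2 control libraries, and 0 counts in each of the 4 MDA-MB-231 libraries. Most of these reads came from PCDHAC1, a C-type alpha gene near the constant exons, with 10 and 9 counts in LM2 shTAF7 and 9 and 15 counts in LM2 control libraries. Against a floor of 3 counts in each MDA-MB-231 library, PCDHAC1 was at least 3.22-fold higher in LM2 shTAF7 than in MDA-MB-231 shTAF7 cells and at least 4.11-fold higher in LM2 control than in MDA-MB-231 control cells. PCDHA13 had 10 and 4 counts in LM2 shTAF7 and 3 and 1 in LM2 control libraries, and PCDHA11 had 1 and 4 in LM2 shTAF7 and 3 and 4 in LM2 control libraries. Of the other 13 alpha genes, 8 had no read in any library and 5 had 4 or fewer in a library. None of the alpha genes passed the filter, so none was tested.

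The beta and gamma clusters were read in every library. The summed level of the beta genes was 16.3 ± 2.02 CPM in LM2 shTAF7, 18.0 ± 0.0775 CPM in LM2 control, 28.8 ± 2.16 CPM in MDA-MB-231 shTAF7 and 25.3 ± 0.509 CPM in MDA-MB-231 control cells (SD, n = 2 each). The 4 LM2 libraries lay between 14.8 and 18.1 CPM and the 4 MDA-MB-231 libraries between 24.96 and 30.3 CPM, with no overlap. The gamma genes summed to 14.6 ± 0.957 CPM in LM2 shTAF7, 14.04 ± 0.00406 CPM in LM2 control, 16.6 ± 2.21 CPM in MDA-MB-231 shTAF7 and 18.4 ± 0.57 CPM in MDA-MB-231 control cells, and here the shTAF7 libraries of the lines overlapped. Sums over members are given without a test. In bulk RNA, fewer cells with a transcript and less transcript per cell cannot be told apart.

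**Figure D2:**
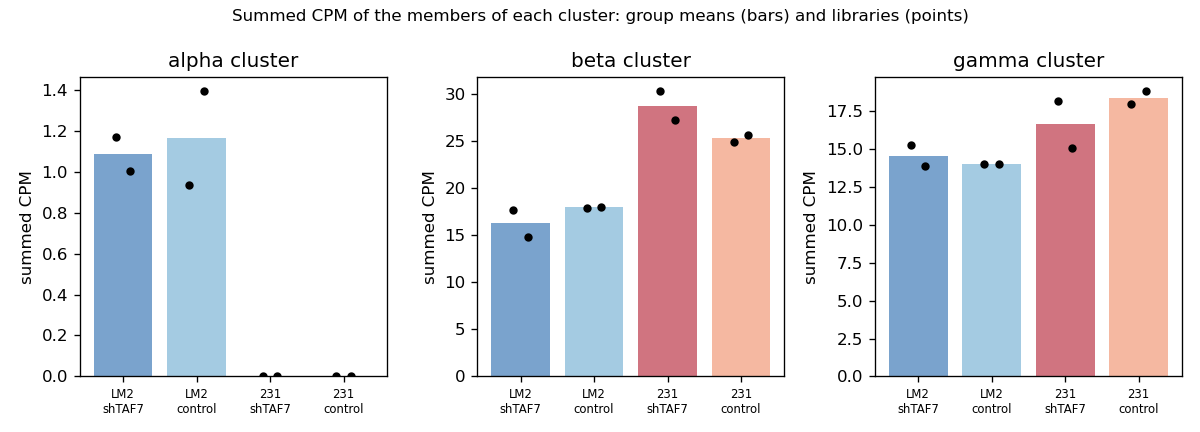
Summed CPM of the alpha, beta and gamma genes in each group, with bars for the mean and points for the 2 libraries. The beta sums of all LM2 libraries lie below those of all MDA-MB-231 libraries, and the alpha sums of MDA-MB-231 are 0.

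Per length, the order of the beta genes differed between the lines. By the deposited FPKM, the highest in LM2 control cells were PCDHB9 and PCDHB11, at 0.825 FPKM each, and PCDHB10 at 0.765 FPKM, and the same 3 genes led in LM2 shTAF7 cells, with PCDHB11 at 0.93, PCDHB10 at 0.835 and PCDHB9 at 0.65 FPKM. In MDA-MB-231 control cells the order was PCDHB10 at 1.10, PCDHB16 at 1.06, PCDHB12 at 0.84 and PCDHB2 at 0.775 FPKM, and in MDA-MB-231 shTAF7 cells it was PCDHB10 at 1.45, PCDHB16 at 1.19, PCDHB12 at 0.92 and PCDHB2 at 0.91 FPKM. PCDHB10 and PCDHB16 were not separated beyond their spread in MDA-MB-231 controls (1.01 and 1.19 FPKM for PCDHB10, 1 and 1.12 FPKM for PCDHB16), nor were PCDHB9 and PCDHB11 in LM2 controls (0.80 and 0.85 FPKM for PCDHB9, 1.05 and 0.60 FPKM for PCDHB11). For the 8 gamma genes with a derived length, the deposited lengths were those of the whole gene with its shared exons. No length was derived for an alpha gene. FPKM is therefore not used to rank alpha or gamma genes here.

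The comparison of LM2 control with MDA-MB-231 control cells shows what separates the lines without knockdown. Of the 24 tested members, 10 were lower and 5 were higher in LM2 (edgeR quasi-likelihood test, Benjamini-Hochberg adjusted p under 0.05 over all genes), while 64.4% of all 15923 genes tested were called, 32.2% as higher and 32.1% as lower. Of the 4253 genes within the members' range of mean CPM, 43.2% were called, 30% as higher and 13.2% as lower. The lower ones were the beta genes PCDHB2, PCDHB8, PCDHB16, PCDHB12 and PCDHB15 and the gamma genes PCDHGA10, PCDHGB7, PCDHGA11, PCDHGA12 and PCDHGC3. The median log2 fold change of the tested members was -0.31, beside 0.02 over all genes and 0.38 over the genes in the same range of CPM. Of the 10 lower members, 5 (PCDHB8, PCDHB15, PCDHGB7, PCDHGA11 and PCDHGA12) had passed the filter through MDA-MB-231 libraries alone. A second comparison between the lines, LM2 shTAF7 against MDA-MB-231 shTAF7, was added after the data had been seen and shares no library with the first. In it 9 members were lower and 2 higher in LM2, while 62.5% of all genes were called (30.9% higher, 31.6% lower), and 40.1% of those in the same range of CPM (20.5% higher, 19.6% lower).

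Among the tested beta genes, PCDHB16 had the lowest ratio of LM2 to MDA-MB-231 between controls, and PCDHB2 the lowest between shTAF7 cells. PCDHB16 had 22 and 13 counts in LM2 shTAF7 and 7 and 9 in LM2 control libraries, against 65 and 109 in MDA-MB-231 shTAF7 and 73 and 76 in MDA-MB-231 control libraries. All 4 LM2 libraries lay below all 4 MDA-MB-231 libraries, and the log2 fold change was -3.16 ± 0.43 between controls (SE, edgeR adjusted p = 1.07e-10) and -2.26 ± 0.33 between shTAF7 cells (adjusted p = 6.6e-09). PCDHB2, at the start of the array, had 0 and 4 counts in LM2 shTAF7 and 13 and 12 in LM2 control libraries, against 75 and 63 in MDA-MB-231 shTAF7 and 59 and 57 in MDA-MB-231 control libraries. The lines did not overlap, with -2.16 ± 0.40 between controls (adjusted p = 1.33e-06) and -5.01 ± 0.82 between shTAF7 cells (adjusted p = 6.02e-12). PCDHB12 had 17 and 13 counts in LM2 shTAF7 and 10 and 21 in LM2 control libraries, against 58 and 76 in MDA-MB-231 shTAF7 and 60 and 59 in MDA-MB-231 control libraries. It too was separated between the lines, at -1.89 ± 0.35 between controls (adjusted p = 2.54e-06) and -2.12 ± 0.36 between shTAF7 cells (adjusted p = 2.48e-07).

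PCDHB15, the last beta gene before TAF7, had 4 and 3 counts in LM2 shTAF7 and 8 and 7 in LM2 control libraries, against 25 and 30 in MDA-MB-231 shTAF7 and 31 and 32 in MDA-MB-231 control libraries. Its log2 fold change was -2.02 ± 0.49 between controls (SE, edgeR adjusted p = 0.00015) and -2.90 ± 0.65 between shTAF7 cells (adjusted p = 8.69e-06), and the lines did not overlap. Both PCDHB15 and PCDHB8 had passed the filter through MDA-MB-231 libraries alone and so had to be higher there. PCDHB8 had 3 and 4 counts in LM2 shTAF7 and 3 and 4 in LM2 control libraries, against 17 and 10 in MDA-MB-231 shTAF7 and 22 and 11 in MDA-MB-231 control libraries. Its values were -2.15 ± 0.71 between controls (adjusted p = 0.00291) and -1.89 ± 0.73 between shTAF7 cells (adjusted p = 0.0113). The calls of PCDHB8 rested on few reads, since the control call was lost when replicate 2 of the MDA-MB-231 controls was left out (-1.65, adjusted p = 0.101) and the shTAF7 call without MDA-MB-231 shTAF7 replicate 2 (-1.34, adjusted p = 0.188) or without LM2 shTAF7 replicate 2 (-1.75, adjusted p = 0.0844) or 3 (-2.05, adjusted p = 0.0584). PCDHB10 had 49 and 58 counts in LM2 shTAF7 and 50 and 38 in LM2 control libraries, against 98 and 78 in MDA-MB-231 shTAF7 and 63 and 69 in MDA-MB-231 control libraries. It was called lower between shTAF7 cells (-0.70 ± 0.24, adjusted p = 0.00852), a call lost without MDA-MB-231 shTAF7 replicate 2 (-0.40, adjusted p = 0.222) or LM2 shTAF7 replicate 2 (-0.62, adjusted p = 0.0609), and not between controls (-0.55 ± 0.25, adjusted p = 0.0547), where 9 of the 15 alternative settings gave a call.

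The gamma variable genes at the far end of their array were nearly silent in LM2. PCDHGB7 had 5 and 7 counts in LM2 shTAF7 and 4 and 5 in LM2 control libraries, against 38 and 40 in MDA-MB-231 shTAF7 and 51 and 48 in MDA-MB-231 control libraries. Its log2 fold change was -3.39 ± 0.56 between controls (SE, edgeR adjusted p = 6.32e-09) and -2.65 ± 0.51 between shTAF7 cells (adjusted p = 9.5e-07). PCDHGA11, the next gene, had 1 and 2 counts in LM2 shTAF7 and 2 and 0 in LM2 control libraries, against 31 and 17 in MDA-MB-231 shTAF7 and 30 and 35 in MDA-MB-231 control libraries. The ratio of LM2 to MDA-MB-231 was 0.0316 between controls (95% counting interval 0.00375 to 0.119, edgeR adjusted p = 1.26e-07) and 0.0639 between shTAF7 cells (0.0127 to 0.198, adjusted p = 6e-06). PCDHGA12 had 1 count in each LM2 shTAF7 library and 0 and 1 in LM2 control libraries, against 29 and 26 in MDA-MB-231 shTAF7 and 33 and 40 in MDA-MB-231 control libraries. Its ratio was 0.0141 between controls (interval 0.000352 to 0.0809, adjusted p = 4.09e-09) and 0.0372 between shTAF7 cells (0.00439 to 0.141, adjusted p = 2.43e-07). For all 3 genes every LM2 library was below every MDA-MB-231 library. All 3 had passed the filter through MDA-MB-231 libraries alone and so had to be higher there. Their direction and adjusted p-values are read with that limit.

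PCDHGA9, upstream of this stretch and too low to be tested, had 0 and 0 counts in LM2 shTAF7 and 1 and 0 in LM2 control libraries, against 1 and 8 in MDA-MB-231 shTAF7 and 8 and 2 in MDA-MB-231 control libraries. PCDHGC3, a C-type gamma gene that many non-neuronal tissues use, lies beyond PCDHGA12 and was not silent. It had 52 and 40 counts in LM2 shTAF7 and 35 and 38 in LM2 control libraries, against 42 and 32 in MDA-MB-231 shTAF7 and 55 and 64 in MDA-MB-231 control libraries. Only the control comparison was called (-0.67 ± 0.28, edgeR adjusted p = 0.033), and the call ended with DESeq2 (adjusted p = 0.107) and with replicate 3 of the MDA-MB-231 controls left out (-0.52, adjusted p = 0.195), LM2 control replicate 2 (-0.61, adjusted p = 0.133) or LM2 control replicate 3 (-0.75, adjusted p = 0.0711). Between shTAF7 cells the value was 0.34 ± 0.29 (adjusted p = 0.315). PCDHGC4 had no read in any library. Among the beta genes too low to be tested, PCDHB3 had 0 to 4 counts in LM2 and 7 to 13 in MDA-MB-231 libraries, PCDHB5 had 0 or 1 in LM2 and 4 to 8 in MDA-MB-231 libraries, and PCDHB6 had 4 to 9 in LM2 and 0 to 3 in MDA-MB-231 libraries, with no overlap between the lines. PCDHGA9, PCDHB3, PCDHB5 and PCDHB6, with the alpha genes PCDHA11, PCDHA13 and PCDHAC1, are all the untested members whose lines did not overlap. LM2 lay below for 3 of them and above for 4. Of the other 23 untested members, 10 had no read in any library, and the lines overlapped for the rest. The share of all genes without overlap was not computed, so these counts are not read as a result about the members.

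Other members were higher in LM2 controls than in MDA-MB-231 controls. PCDHB9, between PCDHB16 and PCDHB10, had 60 and 51 counts in LM2 shTAF7 and 62 and 65 in LM2 control libraries, against 29 and 48 in MDA-MB-231 shTAF7 and 42 and 32 in MDA-MB-231 control libraries. Every LM2 library was above every MDA-MB-231 library, with a log2 fold change of 0.82 ± 0.27 between controls (SE, edgeR adjusted p = 0.00608), which fell to 0.66 with an adjusted p of 0.0742 when replicate 3 of the MDA-MB-231 controls was left out, and 0.56 ± 0.27 between shTAF7 cells (adjusted p = 0.0628, called without replicate 3 of either shTAF7 group at adjusted p = 0.0371 and 0.0474). PCDHB11 had 84 and 66 counts in LM2 shTAF7 and 77 and 43 in LM2 control libraries, against 46 and 43 in MDA-MB-231 shTAF7 and 28 and 29 in MDA-MB-231 control libraries. It was called between controls (1.11 ± 0.30, adjusted p = 0.000912, lost without LM2 control replicate 2 at 0.63, adjusted p = 0.134) and between shTAF7 cells (0.78 ± 0.26, adjusted p = 0.00843). The call between shTAF7 cells was lost with limma on FPKM (adjusted p = 0.0759), without MDA-MB-231 shTAF7 replicate 3 (0.60, adjusted p = 0.104) and without LM2 shTAF7 replicate 2 (0.55, adjusted p = 0.144). Over all 8 libraries the lines overlapped for PCDHB11, with 2.40 CPM in LM2 control replicate 3 and 2.68 CPM in MDA-MB-231 shTAF7 replicate 2.

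PCDHGB1 and PCDHGB2 near the start of the gamma array went the same way. PCDHGB1 had 49 and 38 counts in LM2 shTAF7 and 58 and 57 in LM2 control libraries, against 32 and 18 in MDA-MB-231 shTAF7 and 35 and 29 in MDA-MB-231 control libraries. Its log2 fold change was 0.88 ± 0.30 between controls (SE, edgeR adjusted p = 0.00866; 0.78 and 0.0562 with MDA-MB-231 control replicate 3 left out) and 0.82 ± 0.33 between shTAF7 cells (adjusted p = 0.0262). The shTAF7 call of PCDHGB1 was lost with DESeq2 (adjusted p = 0.0823), with limma on FPKM (adjusted p = 0.0885), without MDA-MB-231 shTAF7 replicate 3 (0.33, adjusted p = 0.446) and without LM2 shTAF7 replicate 2 (0.58, adjusted p = 0.222). PCDHGB2 had 48 and 35 counts in LM2 shTAF7 and 56 and 60 in LM2 control libraries, against 37 and 31 in MDA-MB-231 shTAF7 and 33 and 24 in MDA-MB-231 control libraries. It was called between controls (1.06 ± 0.30, adjusted p = 0.00155) and not between shTAF7 cells (0.31 ± 0.30, adjusted p = 0.375). Over all libraries the lines overlapped for PCDHGB2.

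Both comparisons between the lines called 8 members lower, PCDHB2, PCDHB8, PCDHB16, PCDHB12, PCDHB15, PCDHGB7, PCDHGA11 and PCDHGA12, which is 80% of those lower between controls and 88.9% of those lower between shTAF7 cells. PCDHB11 and PCDHGB1 were called higher in both, 40% of those higher between controls and 100% of those between shTAF7 cells. Of the 8 lower members, PCDHB2, PCDHB16 and PCDHB12 had passed the filter through both lines, and the other 5 had passed through MDA-MB-231 alone, which bears on their direction in both comparisons. Over all genes tested, 73.9% of those lower between controls were also lower between shTAF7 cells, and 75.2% the other way round, against 80.1% and 54% over the genes in the members' range of CPM. For the higher calls these shares were 69.9% and 72.9% over all genes, and 53% and 77.5% in the same range. No member was called in opposite directions, and 19 of the 24 tested had the same sign, beside 78.5% of all genes, so the members' shared sign is near that of genes at large. Along the locus, the lower and higher calls between controls were interspersed in the beta array. In the gamma array the higher calls between controls lay at the start. The 4 lower calls of A and B type between controls followed each other from PCDHGA10 to PCDHGA12. Between shTAF7 cells PCDHGA10 and PCDHGB2 were not called (edgeR adjusted p = 0.361 and 0.375). In this run PCDHGB7, PCDHGA11 and PCDHGA12 had passed the filter through MDA-MB-231 alone, so their direction is limited by the filter.

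**Figure D3:**
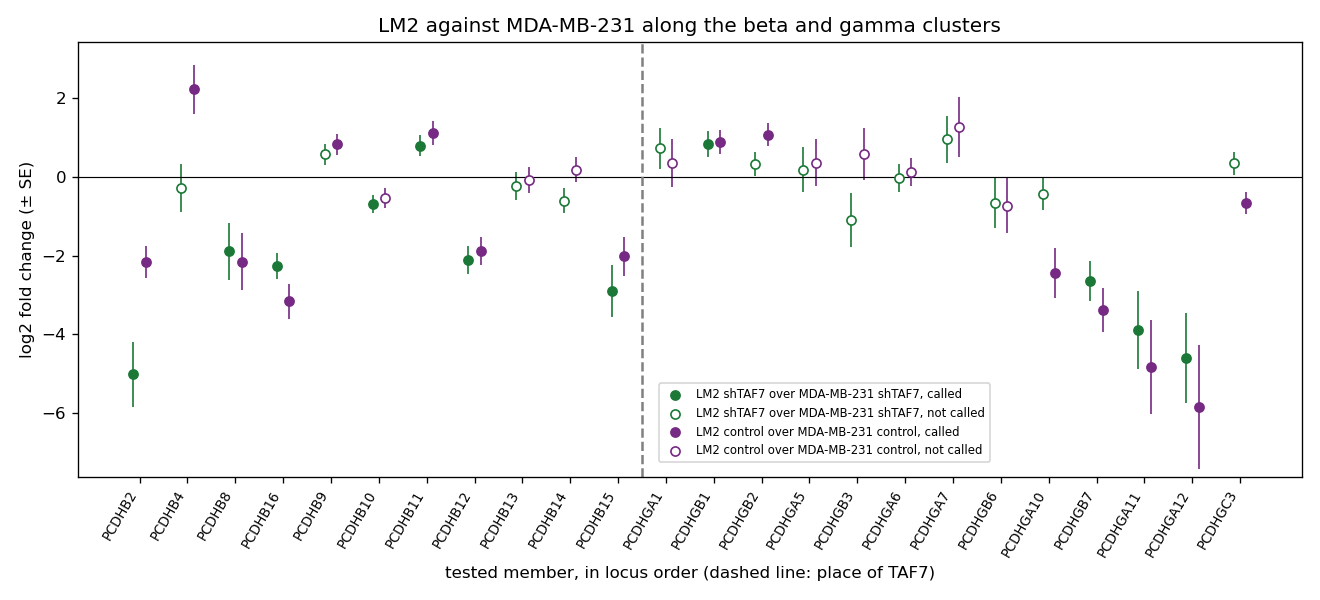
Log2 fold change (± SE) of LM2 over MDA-MB-231 for the 24 tested members in locus order, between shTAF7 cells (green) and between controls (purple), with filled points called at an adjusted p under 0.05. PCDHB16 and PCDHB9 lie side by side on opposite sides of 0, and PCDHGB7, PCDHGA11 and PCDHGA12 are the lowest of the gamma genes; the fitted values of PCDHGA11 and PCDHGA12 rest on 1 to 3 LM2 counts a group.

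PCDHB13, PCDHB14 and PCDHGA6, which had a mean of at least 1 CPM, were called in no comparison. PCDHB13 had 21 and 33 counts in LM2 shTAF7 and 24 and 46 in LM2 control libraries, against 35 and 30 in MDA-MB-231 shTAF7 and 41 and 35 in MDA-MB-231 control libraries, and its log2 fold change between controls was -0.08 ± 0.33. PCDHB14 had 31 and 26 counts in LM2 shTAF7 and 43 and 34 in LM2 control libraries, against 44 and 45 in MDA-MB-231 shTAF7 and 28 and 42 in MDA-MB-231 control libraries. PCDHGA6 had 23 and 33 counts in LM2 shTAF7 and 30 and 25 in LM2 control libraries, against 22 and 37 in MDA-MB-231 shTAF7 and 27 and 25 in MDA-MB-231 control libraries. The libraries of the lines overlapped for all 3. The 5 other tested gamma genes, PCDHGA1, PCDHGA5, PCDHGB3, PCDHGA7 and PCDHGB6, had 2 to 22 counts in every library and were called in no comparison.

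Since these genes are best known from neurons, the neuronal markers were read beside the line comparison. SNAP25, a synaptic membrane-fusion protein, had 132 and 127 counts in LM2 shTAF7 and 153 and 137 in LM2 control libraries, against 0 and 0 in MDA-MB-231 shTAF7 and 3 and 1 in MDA-MB-231 control libraries. SYT1, a synaptic calcium sensor, had 69 to 77 counts in LM2 and 88 to 119 in MDA-MB-231 libraries, and RBFOX3, a neuronal splicing factor, had 3 to 13 in LM2 and 0 to 7 in MDA-MB-231 libraries. The 3 markers together had 216 to 225 counts in LM2 and 91 to 126 in MDA-MB-231 libraries, with no overlap. This separation of the sum came from SNAP25 alone, since SYT1 counts were lower in LM2 and RBFOX3 counts were few. SNAP25 was called higher in LM2 in both line comparisons (edgeR adjusted p = 6.12e-19 between shTAF7 cells and 8.99e-19 between controls), while RBFOX3 was called higher and SYT1 lower between shTAF7 cells only. Their part in the protocadherin differences was not tested.

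Knockdown of TAF7 left most of the clustered protocadherins without a call. The same held for most genes in their range of CPM, so the counts of calls do not set the members apart. In LM2, 3 of the 24 tested members were called with shTAF7 against control, 1 higher and 2 lower, while 41.3% of all genes were called (21.8% higher, 19.4% lower), and 18.8% of the genes in the members' range of CPM (2.8% higher, 16% lower). In MDA-MB-231, 0 of 24 were called by edgeR, by DESeq2 or by limma on FPKM, while edgeR called 25.6% of all genes (12.6% higher, 12.9% lower) and 4.77% of those in the same range (3.06% higher, 1.72% lower). There, 2 members had an unadjusted p under 0.05. The median log2 fold change of the tested members was -0.02 in LM2 and 0.15 in MDA-MB-231, beside -0.02 and 0.01 over all genes and -0.29 and 0.04 over the genes in the same range. The standard errors of the members were 0.25 to 1.89 in LM2 and 0.23 to 0.78 in MDA-MB-231 on the log2 scale, while TAF7 itself changed by -0.43 in LM2 and -0.77 in MDA-MB-231. The LM2 comparison shares its control libraries with the line comparison above.

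**Figure D4:**
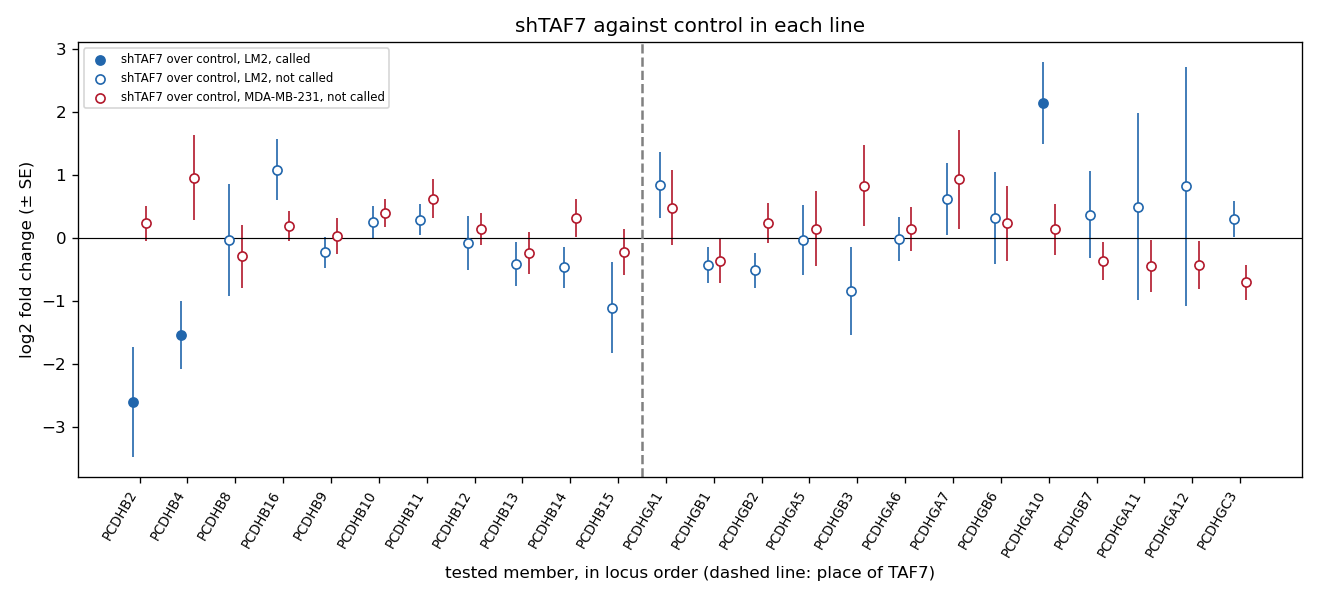
Log2 fold change (± SE) of shTAF7 over control for the 24 tested members in locus order, in LM2 (blue) and in MDA-MB-231 (red), with filled points called at an adjusted p under 0.05. PCDHB2 and PCDHB4 are the 2 members called lower and PCDHGA10 the 1 called higher in LM2, and no point is filled for MDA-MB-231.

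PCDHGA10 was the member that was higher with shTAF7 in LM2. It had 16 and 21 counts in LM2 shTAF7, against 2 and 6 in LM2 control libraries, and 28 and 23 in MDA-MB-231 shTAF7, against 26 and 20 in MDA-MB-231 control libraries. The low group was the LM2 control, and LM2 shTAF7 lay just below the MDA-MB-231 libraries in CPM. The log2 fold change was 2.14 ± 0.65 in LM2 (SE, edgeR adjusted p = 0.00248), lost without LM2 control replicate 2 (1.57, adjusted p = 0.0726), and 0.14 ± 0.40 in MDA-MB-231 (adjusted p = 0.851). Between the lines PCDHGA10 was called lower between controls (-2.45 ± 0.64, adjusted p = 0.000169) and not between shTAF7 cells (-0.44 ± 0.42, adjusted p = 0.361).

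PCDHB2 and PCDHB4 were lower with shTAF7 in LM2. PCDHB2, with the counts given above, changed by -2.60 ± 0.87 in LM2 (SE, edgeR adjusted p = 0.00272) and by 0.24 ± 0.28 in MDA-MB-231 (adjusted p = 0.584). Its LM2 call was lost without LM2 shTAF7 replicate 2, the library with 0 reads (-1.68, adjusted p = 0.0658), and with limma on FPKM (adjusted p = 0.0782). PCDHB4 had 12 and 4 counts in LM2 shTAF7, against 18 and 28 in LM2 control libraries, and 9 and 11 in MDA-MB-231 shTAF7, against 7 and 3 in MDA-MB-231 control libraries. Here the LM2 control was the high group. The value was -1.53 ± 0.54 in LM2 (adjusted p = 0.0142), lost with DESeq2 (adjusted p = 0.0896), without LM2 shTAF7 replicate 3 (-0.90, adjusted p = 0.292) and without LM2 control replicate 3 (-1.16, adjusted p = 0.22), and 0.96 ± 0.68 in MDA-MB-231 (adjusted p = 0.306). PCDHB4 had passed the filter through LM2 libraries alone and so had to be high there; between controls it was called higher in LM2 (2.22 ± 0.62, adjusted p = 0.000623), and between shTAF7 cells it was not called (-0.28 ± 0.60, adjusted p = 0.70).

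Of the other members, PCDHB16 had a log2 fold change of 1.09 ± 0.49 in LM2 (SE, edgeR adjusted p = 0.0582), called without LM2 shTAF7 replicate 3 (1.48, adjusted p = 0.0263), and of 0.19 ± 0.24 in MDA-MB-231 (adjusted p = 0.609). PCDHGC3 had the lowest adjusted p of the members in MDA-MB-231 (-0.70 ± 0.28, adjusted p = 0.0573) and was called there without MDA-MB-231 shTAF7 replicate 2 (-1.05, adjusted p = 0.0188), LM2 shTAF7 replicate 2 (-0.71, adjusted p = 0.0479) or LM2 shTAF7 replicate 3 (-0.71, adjusted p = 0.0463), but not without MDA-MB-231 shTAF7 replicate 3 (-0.39, adjusted p = 0.465). In LM2 PCDHGC3 stood at 0.31 ± 0.29 (adjusted p = 0.419). PCDHB11 had the other unadjusted p under 0.05 in MDA-MB-231, at 0.62 ± 0.31 (adjusted p = 0.137).

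**Figure D5:**
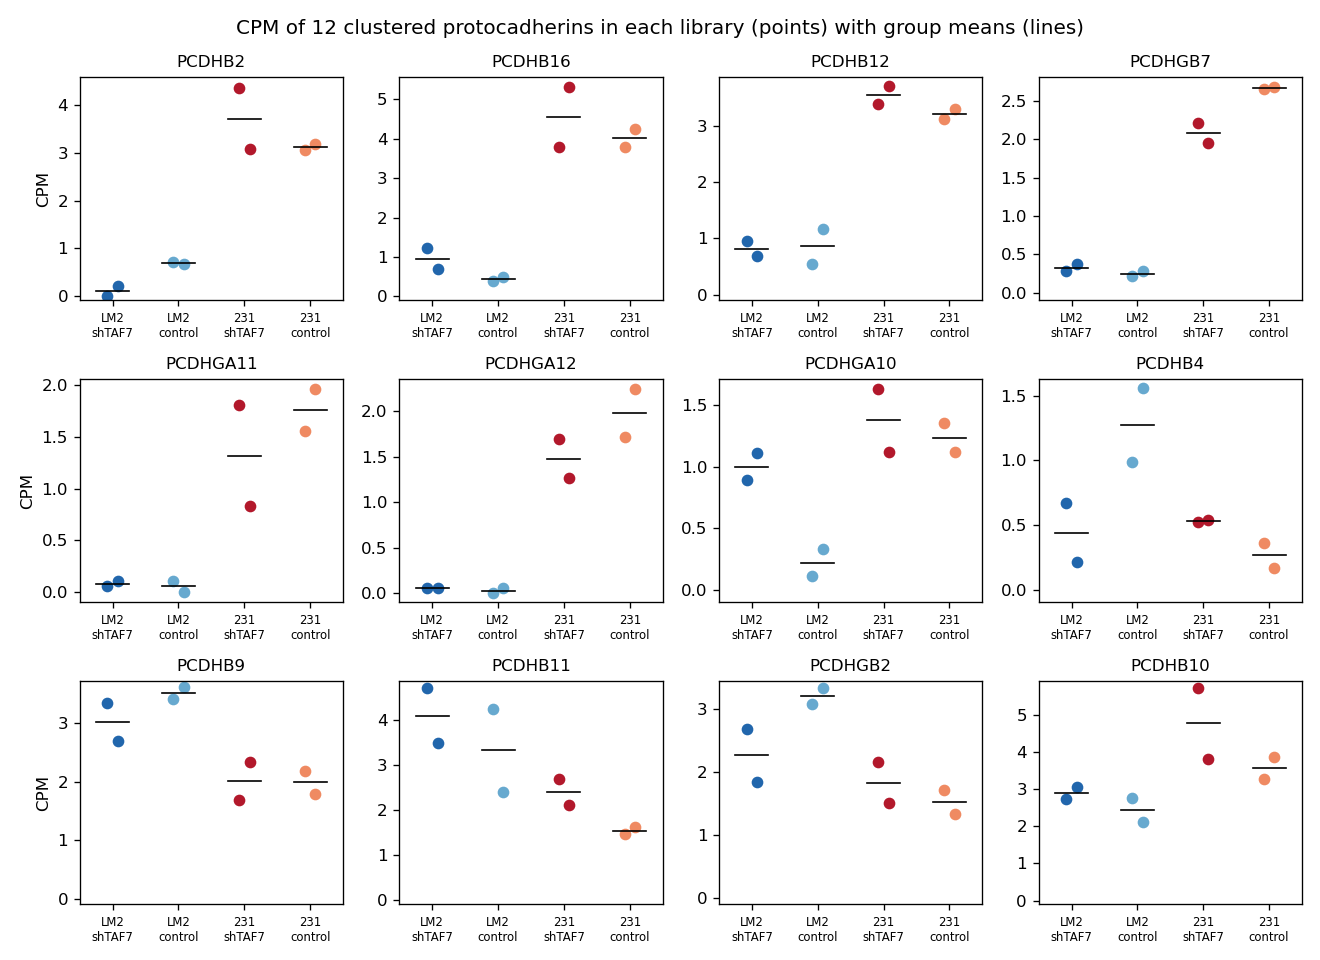
CPM of 12 named members in each library (points) with group means (lines), each panel with its own linear axis and the name MDA-MB-231 shortened in the axis labels. PCDHGA10 and PCDHB4 differ between LM2 shTAF7 and LM2 control, and PCDHB16, PCDHB12 and PCDHGB7 separate the lines whatever the hairpin. PCDHB9 is higher in every LM2 library, while PCDHB11 has higher group means in LM2 but libraries that overlap between the lines.

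The effect of shTAF7 in LM2 was also tested against its effect in MDA-MB-231. This difference (LM2 minus MDA-MB-231, log2) was called for 3 of the 24 members, 1 positive and 2 negative. It was called for 25.8% of all genes (13.9% positive, 11.9% negative) and for 9.1% of those in the same range of CPM (0.988% positive, 8.11% negative). It was -2.84 ± 0.91 for PCDHB2 (SE, edgeR adjusted p = 0.00424), -2.50 ± 0.87 for PCDHB4 (adjusted p = 0.0212) and 2.01 ± 0.76 for PCDHGA10 (adjusted p = 0.0323). The calls were sensitive to single libraries. That of PCDHB2 was lost under 2 of 14 alternatives, without LM2 shTAF7 replicate 2 (-1.90, adjusted p = 0.0651) and with limma on FPKM (-0.30, adjusted p = 0.092), while those of PCDHB4 and PCDHGA10 were each lost under 6 of 14 alternatives, among them DESeq2 (adjusted p = 0.0848 and 0.095) and the omission of LM2 shTAF7 replicate 3 (-1.85 with adjusted p = 0.143 for PCDHB4, 1.88 with adjusted p = 0.0981 for PCDHGA10). For TAF7 itself the difference was 0.34 ± 0.10 (adjusted p = 0.00544), so its own reduction was smaller in LM2. PCDHGC3 was short of a call at 1.004 ± 0.40 (adjusted p = 0.0581) and was called under 3 alternatives.

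The genes flanking the arrays, other than the clustered protocadherins and TAF7, were called in both directions. Of 24 listed neighbours, 21 were tested. With shTAF7 against control 7 were higher and 5 lower in LM2, where 41.3% of all genes were called, and 3 were higher and 3 lower in MDA-MB-231, where 25.6% of all genes were called. In LM2, PCDH1, a protocadherin gene beyond the gamma array, changed by -1.74 ± 0.41 (log2, SE, edgeR adjusted p = 0.000264). HARS1, the histidyl-tRNA synthetase gene on the alpha side, was higher there (0.49 ± 0.07, adjusted p = 1.61e-07), as were SRA1 (0.48 ± 0.08, adjusted p = 4.04e-06) and the splicing factor gene IK (0.45 ± 0.07, adjusted p = 3.59e-07). In MDA-MB-231, DIAPH1, an actin-nucleating formin gene next to the gamma array, was lower (-0.40 ± 0.07, adjusted p = 1.61e-05). The calls there of FCHSD1 (0.30 ± 0.10, adjusted p = 0.0162), IK (0.29 ± 0.07, adjusted p = 0.00113) and DELE1 (-0.28 ± 0.08, adjusted p = 0.00672) were each lost when replicate 2 of the MDA-MB-231 controls was left out (adjusted p = 0.0512 for FCHSD1, 0.064 for IK and 0.151 for DELE1), and that of FCHSD1 under 4 further alternatives. Between controls 6 neighbours were higher and 7 lower in LM2, beside 64.4% of all genes called. APBB3, an adaptor that binds the amyloid precursor protein, was higher (1.39 ± 0.15, adjusted p = 5.98e-12), and so was PCDH12, a protocadherin of endothelial cells (1.19 ± 0.39, adjusted p = 0.00607), a call lost without replicate 2 of the MDA-MB-231 controls (1.12, adjusted p = 0.0531) or of the LM2 controls (1.03, adjusted p = 0.0719). SLC25A2, the mitochondrial carrier gene that shares the interval between the beta and gamma arrays with TAF7, had 0 to 4 counts per library.

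All 28 listed factors known to act on protocadherin promoters were tested. With shTAF7 against control 6 were higher and 7 lower in LM2, beside 41.3% of all genes called, and 1 was higher and 10 lower in MDA-MB-231, beside 25.6% of all genes called. In LM2, TRIM28, the corepressor of zinc-finger proteins, was higher (0.87 ± 0.07, log2, SE, edgeR adjusted p = 2.45e-14), as was the maintenance DNA methyltransferase DNMT1 (0.41 ± 0.07, adjusted p = 4.59e-06). ZNF274, a zinc-finger protein that brings SETDB1 to DNA, was lower (-0.57 ± 0.08, adjusted p = 2.92e-08), as was REST, a repressor of neuronal genes (-0.45 ± 0.08, adjusted p = 1.05e-05). In MDA-MB-231 the methylcytosine dioxygenase TET3 was lower (-0.43 ± 0.10, adjusted p = 0.000584), as was the cohesin-release factor WAPL (-0.34 ± 0.07, adjusted p = 0.000305). The cohesin subunit STAG1 was lower there too (-0.42 ± 0.09, adjusted p = 0.000679), a call lost without MDA-MB-231 shTAF7 replicate 3 (-0.26, adjusted p = 0.0972), and so was REST (-0.35 ± 0.08, adjusted p = 0.000525), lost when replicate 2 of the MDA-MB-231 controls was left out (-0.27, adjusted p = 0.0734). Between controls 6 were higher and 16 lower in LM2, beside 64.4% of all genes called, with TET1 at -1.09 ± 0.28 (adjusted p = 0.000613), the de novo methyltransferase DNMT3B at 0.96 ± 0.11 (adjusted p = 6.1e-11), the histone methyltransferase EHMT1 at -0.94 ± 0.08 (adjusted p = 1.7e-14) and ZNF274 at 0.80 ± 0.08 (adjusted p = 7.42e-13).

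The signalling partners and proteases of the proteins were read as a further list, of which 22 of 23 were tested. With shTAF7 against control 4 were higher and 6 lower in LM2, beside 41.3% of all genes called, and 2 higher and 6 lower in MDA-MB-231, beside 25.6%. In LM2 the scaffold AXIN1 was higher (0.40 ± 0.08, log2, SE, edgeR adjusted p = 0.000126), as was the gamma-secretase subunit APH1A (0.29 ± 0.07, adjusted p = 0.000585), and the kinase FYN was lower (-0.35 ± 0.08, adjusted p = 0.000139). In MDA-MB-231, CYFIP2, a subunit of the WAVE complex that regulates actin, was lower (-0.61 ± 0.14, adjusted p = 0.00106), a call lost with limma on FPKM (adjusted p = 0.0642). NCSTN, the nicastrin subunit of gamma-secretase, was lower there (-0.38 ± 0.07, adjusted p = 6.47e-05), as was WASF2 of the WAVE complex (-0.38 ± 0.07, adjusted p = 9.01e-05). Between controls 7 were higher and 8 lower in LM2, beside 64.4% of all genes called. PTK2B, the kinase PYK2 that protocadherin alpha and gamma proteins are known to inhibit, was higher (2.00 ± 0.31, adjusted p = 5.44e-08), and ADAM10, the protease that sheds gamma protocadherins, was lower (-1.09 ± 0.07, adjusted p = 9.38e-19).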

How the data were processed

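RNA enriched for mRNA, per the labels, was measured in 8 libraries. The deposited counts were whole reads per gene without normalization, as judged from the values, and STAR 2.7.10a and hg19 stand in the submitters' processing notes. How reads were counted (program, annotation, strand, reads that match several genes) is not given in these sources. Protocadherin genes resemble one another, so reads assigned to a similar gene could change the count of any member. In the deposited FPKM values the authors' scaling was to gene length and library total, and count over FPKM followed library totals within 0.0925% over 3401 genes. The implied lengths, derived for 12 beta and 8 gamma genes and for no alpha gene, were mostly those of the whole gene. Their medians were 100% of the GENCODE release 29 exons for gamma and 99.4% for beta genes, so shared exons count in the FPKM of gamma genes. Exceptions among the beta genes were PCDHB16 at 76.7% and PCDHB14 at 91.3%. Counts were filtered (edgeR filterByExpr, 15923 genes), scaled with TMM and fitted with a mean per group over all 8 libraries (4 residual degrees of freedom; R 4.3.3, edgeR 4.0.16), with Benjamini-Hochberg adjustment over all genes and calls under 0.05. The SE of a log2 fold change came from the model. Intervals (95%) and the floor of 3 counts per library cover counting error only. Alternatives were RLE factors, other filters, the replicate number as a block, only the libraries compared, each library left out, DESeq2 1.42.0 and limma 3.58.1 on log2(FPKM + 1), a scale that understates changes of low genes. With n = 2 per group and no label naming separate cultures, p-values measure the spread between libraries. Named were members called in a comparison or averaging 1 CPM or more, and, of other lists, examples from up to 4 called genes with the largest change per list and comparison. Outside this rule, counts were also given for the untested members whose lines did not overlap, which are thus picked by their line pattern. Members and lists were chosen with earlier results of these data known. Promoters came from RefSeq (GRCh38.p14), and no file coordinates were used.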

Additional observations from a re-analysis of the deposited data

Results flagged for a closer look

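For 3 members the effect of shTAF7 in LM2 differed from that in MDA-MB-231 by the edgeR test of the difference itself (LM2 minus MDA-MB-231, log2). It was -2.84 for PCDHB2 (adjusted p = 0.00424), -2.50 for PCDHB4 (adjusted p = 0.0212) and 2.01 for PCDHGA10 (adjusted p = 0.0323). For PCDHB2 and PCDHGA10 the change in MDA-MB-231 was small (0.24 ± 0.28 and 0.14 ± 0.40, SE), whereas for PCDHB4 the difference was made of -1.53 ± 0.54 in LM2 and 0.96 ± 0.68 in MDA-MB-231. TAF7 differed by 0.34 (adjusted p = 0.00544, lost without MDA-MB-231 control replicate 3).

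Among the flanking genes, SLC35A4 differed by 0.56 (adjusted p = 0.000161), HARS1 by 0.42 (adjusted p = 0.000971), DIAPH1 by 0.41 (adjusted p = 0.00137) and APBB3 by -0.55 (adjusted p = 0.0397, lost under 9 alternatives). Among the promoter regulators, TRIM28 differed by 0.72 (adjusted p = 1.13e-07), STAG1 by 0.55 (adjusted p = 0.000955), ZNF274 by -0.69 (adjusted p = 3.64e-06) and LRIF1 by -0.65 (adjusted p = 6.64e-05). Among the partners, CYFIP1 differed by 0.57 (adjusted p = 1.99e-05), CYFIP2 by 0.61 (adjusted p = 0.0167), FYN by -0.47 (adjusted p = 0.000641) and PTK2B by -1.24 (adjusted p = 0.0204), those of CYFIP2 and PTK2B being lost under 5 alternatives each.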

How the results depend on the processing

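Of the single-gene values under an alternative, 50 had another sign than the value reported, and 0 of these were called as reported or under the alternative. The number of members called was 0 with shTAF7 in MDA-MB-231, 0 to 1 when a library was left out (1, PCDHGC3, without MDA-MB-231 shTAF7 replicate 2, LM2 shTAF7 replicate 2 or LM2 shTAF7 replicate 3). For the difference of the shTAF7 effects it was 3, but 1 with limma on FPKM, 1 with DESeq2 and 1 to 3 when a library was left out. Of all genes, 4070 were called with shTAF7 in MDA-MB-231 and 2031 to 4408 when a library was left out (2362 without MDA-MB-231 shTAF7 replicate 3, 2031 and 2279 without MDA-MB-231 control replicate 2 and 3). Between the lines, 15 members were called between controls (14 to 18 without a library) and 11 between shTAF7 cells (10 to 14). Over single genes, 2077 values kept their side of the threshold, 80 lost it and 19 gained it. The replicate number as a block gave 0 members in MDA-MB-231, 3 in LM2, 16 between controls, 11 between shTAF7 cells and 3 for the difference, and the numbers did not pair the libraries (correlations of deviations -0.034 to -0.007). With 0 to 109 counts per library, the tested members' median SE of a log2 fold change with shTAF7 was 0.533 in LM2 and 0.347 in MDA-MB-231. Antisense transcripts overlapping the members (13 in the table) had at most 8 counts in a library.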
